A study of Mus musculus with 30 samples.

Results

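The transcriptome of normal XY germ cells was compared between E12.5 and E11.5 (E, embryonic day), the interval in which the fetal testis forms around them. The comparison rests on 6 arrays of the 30 in the series, chosen by their labels for genotype Ring1+;Rnf2+, male sex and stage: 3 arrays of E12.5 and 3 arrays of E11.5. The cells are primordial germ cells, the embryonic precursors of sperm and eggs, on a mixed 129/Sv and C57BL6J background. All carried Oct4(deltaPE)-GFP, a transgene in which a germ cell enhancer of Pou5f1 drives a green fluorescent protein, and the GFP-positive cells of trypsin-dissociated gonads were isolated by cell sorting. The input of each array was the RNA of 500 sorted cells, amplified as cDNA before labelling. Used beside them were 3 arrays of XY control cells at E13.5 and 6 arrays of XX control cells at E12.5 and E11.5. A further 6 were of XY germ cells labelled Ring1+;Rnf2delta at E12.5 and E11.5 (called Rnf2delta, altered in Rnf2, a ubiquitin ligase of Polycomb repressive complex 1). XX control cells at E13.5 are used for levels only. XX Rnf2delta cells at E12.5 and E11.5 enter only the shared fit. The spread behind each p-value was estimated from all 30 arrays in 10 groups, XX arrays included. Nothing in the labels ties the replicates to different embryos, litters or sorts, and the p-values therefore reflect only array-to-array spread, part of which may be technical. How Rnf2 was deleted is not given in the sources used here.

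Primordial germ cells reach the genital ridge still expressing pluripotency factors and with a genome from which much DNA methylation is being removed. In the gonad they switch on a germline programme of RNA-binding proteins and transposon defence factors that are kept silent elsewhere by promoter methylation and by Polycomb complexes. Sertoli cells of the new testis then shield XY germ cells from retinoic acid, which induces meiosis in XX germ cells, and XY germ cells pass through a phase of Nodal signalling, switch on Nanos2 and stop dividing.

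The labels were checked against defining genes. Pou5f1 read 9.48, 9.66 and 9.14 on the E12.5 arrays, against 9.71, 9.42 and 9.50 on the E11.5 arrays (log2 signal, replicates 1 to 3, as in all triplets here). Nanog, Dazl and Dppa3 read between 7.57 and 9.39 on the 6 arrays, far above the array medians of 2.52 to 2.59. The Y-linked gene Eif2s3y read 4.84 to 5.65 at E12.5 and 4.50 to 5.07 at E11.5 in XY controls, and 1.66 to 2.152 and 1.52 to 1.69 at the same stages in XX controls. Over 8 lists of other cells' markers, 1 gene passed the test of E12.5 against E11.5: Tyrobp, an adaptor of macrophage receptors, which fell. The summed linear signal of the 11 macrophage markers was 45.9 to 49.8 at E12.5 and 60.3 to 79.5 at E11.5, with Ptprc, Lyz2, Aif1 and Adgre1 at or below the 40th percentile of every array. The 18 Sertoli cell markers summed to 128.1, 136.7 and 170.3 at E12.5, against 160.5, 121.5 and 116.6 at E11.5, and these ranges overlap. Of these 18, 4 were higher and 2 lower without overlap, where 10.8% and 14.4% of all genes had this. The higher ones were Amh and Defb19, given below, and Ptgds and Aard. Ptgds read 3.27 to 3.80 at E12.5 and 2.565 to 2.86 at E11.5, and Aard 2.76 to 3.42 and 2.40 to 2.62. The lower ones were Sry and Sox9. Sry read 3.751 to 3.987 at E12.5 and 4.011 to 4.235 at E11.5, and Sox9 2.51 to 2.601 and 2.629 to 3.194. In XX controls at E11.5, Sry read 3.911 to 4.515. Of the 18 markers, 7 had a positive change, and their median was -0.0735. E12.5 replicate 3 stood apart from replicates 1 and 2 in Sertoli genes and bright unnamed probe sets. Its values of Amh and Defb19 were the highest. Amh read 2.503, 2.81 and 3.50 at E12.5, against 2.145, 2.19 and 2.32 at E11.5. Defb19 read 3.16, 3.46 and 4.84, against 2.82, 2.41 and 2.23 (neither past the threshold). On 15 bright probe sets with no gene listed, replicate 3 averaged 10.32, like the E11.5 arrays (10.33, 10.16 and 10.29) and below replicates 1 and 2 (10.84 and 10.72); the third Rnf2delta XY array at E12.5 had 10.28. The part of these differences in the results below was not tested.

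From E11.5 to E12.5, 146 genes rose (0.962% of 15180 tested) and 251 fell (1.65%), 397 in all (2.62%), at a limma adjusted p under 0.05. Of these, 16 rises and 38 falls exceeded 2-fold. The median change over all genes was -0.0243 on the log2 scale. The shares of 0.962% higher and 1.65% lower are those to set beside the counts of called genes on each list below. The called genes were well expressed, with median levels of 5.74 among those that rose and 5.22 among those that fell, against 3.38 over all genes. The arrays of the stages did not overlap for 25.2% of all genes (10.8% higher, 14.4% lower). After quantile normalization the split was 215 higher and 218 lower. Because the input was bulk RNA of sorted cells, a lower share of cells with a transcript and less transcript per cell cannot be told apart. Leaving out E12.5 replicate 3 reduced the counts to 40 and 64. Compared with the E11.5 arrays by itself, replicate 3 had the same direction for 146 of 146 and 251 of 251 genes, a comparison in which its own values helped to make the calls.

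**Figure D1:**
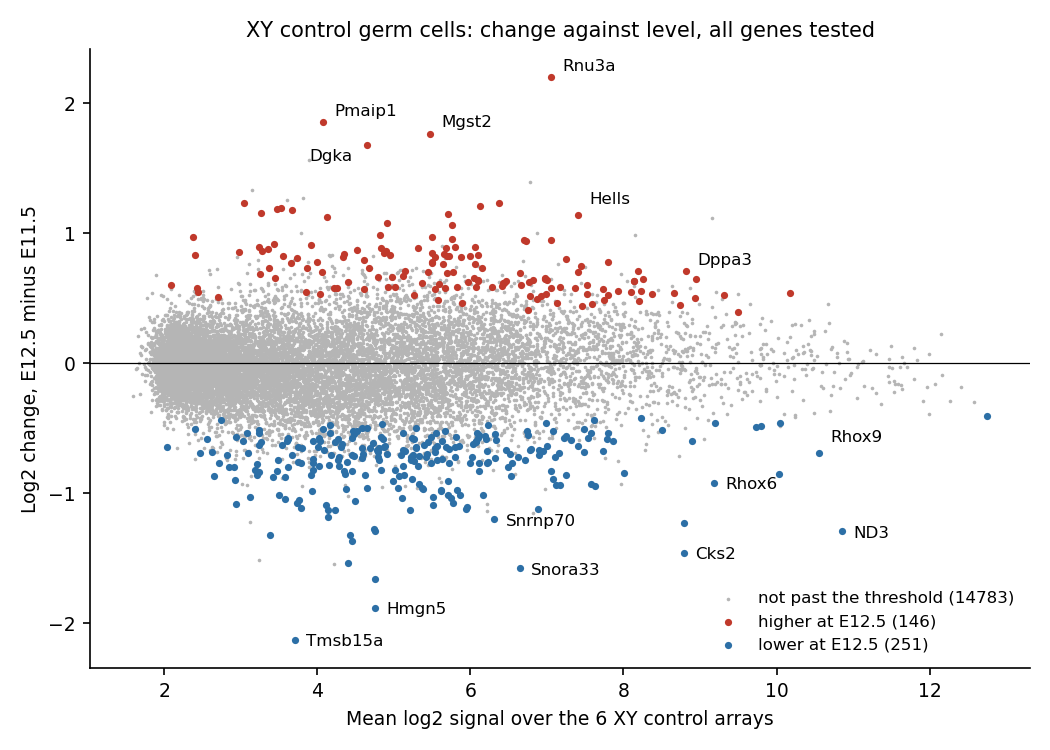
Each point is 1 of 15180 genes in XY control germ cells, with its mean log2 signal over the 6 arrays on the x axis and its log2 change (E12.5 minus E11.5) on the y axis. Genes past the threshold are coloured, 146 higher and 251 lower at E12.5, with the largest rise at Rnu3a (2.20) and the largest fall at Tmsb15a (-2.13).

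The largest rise was that of Rnu3a. Rnu3a, a U3 small nucleolar RNA that guides ribosomal RNA cleavage, read 8.17, 8.56 and 7.74 at E12.5, against 5.94, 5.84 and 6.07 at E11.5. All 3 later arrays lay above all 3 earlier ones by more than 1 log2 unit, and the rise was 2.20 ± 0.30 (SE; 4.6-fold, limma adjusted p = 0.00015). Pmaip1, the p53-induced BH3-only protein NOXA, read 5.11, 5.53 and 4.37, against 3.13, 3.29 and 3.03. Replicate 3 was the lowest of the later arrays and still above the earlier ones, and Pmaip1 rose 3.62-fold (adjusted p = 0.00052). Dgka, a diacylglycerol kinase, rose 3.2-fold, with 5.26, 5.71 and 5.48 at E12.5 and 4.17, 3.57 and 3.67 at E11.5 (adjusted p = 0.00066). Mgst2, a membrane glutathione transferase, rose 3.4-fold, with 6.66, 6.14 and 6.28, against 3.85, 4.94 and 4.99 (adjusted p = 0.0094, and 0.077 without E11.5 replicate 1). Ccl25, a chemokine, rose by 1.16 ± 0.22 (adjusted p = 0.0048), and Stk17b, a kinase linked to apoptosis, by 1.21 ± 0.23 (adjusted p = 0.0054, and 0.050 without E11.5 replicate 1). Map3k5, the stress kinase ASK1, read 3.75, 3.76 and 4.85, against 2.90, 2.66 and 3.21, with E12.5 replicate 3 well above the rest (change 1.19, adjusted p = 0.011, and 0.12 without that array and 0.063 without E11.5 replicate 2). Khdc3, an oocyte and embryo protein, had the same shape, with 3.55, 3.82 and 4.81, against 2.88, 2.45 and 3.31 (adjusted p = 0.016, and 0.17 without E12.5 replicate 3; the call also ended without E11.5 replicate 1 or 2). Cthrc1, a secreted collagen triple helix protein, rose by 1.13 ± 0.28 (adjusted p = 0.022), a call kept only without E12.5 replicate 2 among the 6 fits that leave out an array (up to 0.18).

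Hmgn5, a nucleosome-binding protein, read 4.06, 3.46 and 3.92 at E12.5, against 6.31, 5.38 and 5.39 at E11.5. It dropped 3.68-fold (adjusted p = 0.019), with the call lost without E11.5 replicate 1, E12.5 replicate 2 or E12.5 replicate 3 (up to 0.12). Tmsb15a, a thymosin that binds actin monomers, read 2.51, 2.71 and 2.7, against 5.61, 3.06 and 5.64. Its fall of 2.13 on the log2 scale (adjusted p = 0.014) rested on E11.5 replicates 1 and 3, since E11.5 replicate 2 lay close to the later arrays, and it was lost without either of them or without E12.5 replicate 3 (up to 0.11). Cks2, a subunit of cyclin-dependent kinase complexes, read 8.10, 8.0 and 8.09, against 9.71, 9.48 and 9.37. It fell by 1.46 on the log2 scale (adjusted p = 7.9e-05) in every fit that left out an array, and was at 0.14 when its probe sets were averaged. Snrnp70, a protein of the U1 spliceosomal particle, read 5.87, 5.63 and 5.63, against 6.89, 6.70 and 7.14 (change -1.20, adjusted p = 7.9e-05). Fstl1, a secreted follistatin-like protein, fell 2.58-fold and Folr1, a folate receptor, 2.42-fold (adjusted p = 0.0048 each), with both calls kept without any 1 array. Notch1, a receptor for signals between neighbouring cells, read 3.50, 3.65 and 3.87, against 5.03, 4.75 and 4.63 (change -1.13, adjusted p = 0.0068). Porcn, the acyltransferase that lipidates WNT ligands, dropped by 1.53 on the log2 scale (adjusted p = 0.012, and 0.076 without E12.5 replicate 3; E11.5 replicate 1 also ended the call). Igf2bp1, an RNA-binding protein of growing embryonic cells, fell by 1.29 on the log2 scale (adjusted p = 0.0029, and 0.077 with its probe sets averaged). Nectin2, an adhesion molecule, changed by -1.18 (adjusted p = 0.0072, and 0.069 without E12.5 replicate 3). The cytoskeletal genes Csrp2 and Tubb2b changed by -1.12 and -1.13 (adjusted p = 0.014 and 0.028). Csrp2 lost its call without E11.5 replicate 2 or E12.5 replicate 3 (up to 0.10), and Tubb2b without E11.5 replicates 1 or 3 or E12.5 replicates 2 or 3 (up to 0.16).

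**Figure D2:**
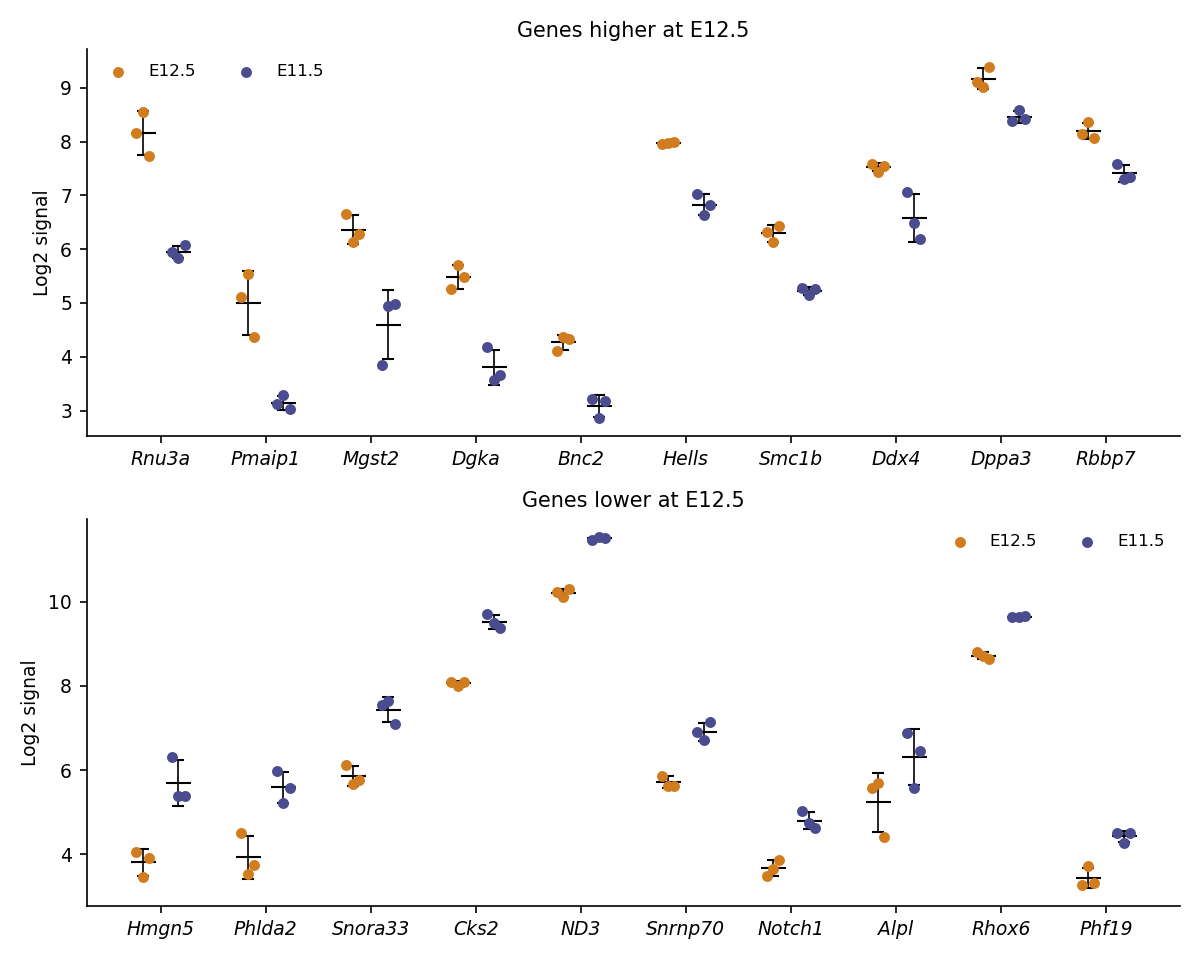
Log2 signal of 10 genes that rose (top) and 10 that fell (bottom) on each of the 3 E12.5 arrays (orange) and the 3 E11.5 arrays (blue) of XY control germ cells, with the group mean and SD in black. Alpl is the 1 gene shown whose groups overlap, at 5.58 on E11.5 replicate 2.

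Ddx4, the RNA helicase VASA that marks gonadal germ cells, read 7.59, 7.44 and 7.54 at E12.5, against 7.07, 6.48 and 6.18 at E11.5. All later arrays were above the earlier ones, and Ddx4 rose 1.93-fold (adjusted p = 0.035), with the call kept without E11.5 replicate 1 and lost without any other array (up to 0.21). Smc1b, the cohesin subunit used in meiosis, read 6.32, 6.13 and 6.43, against 5.28, 5.14 and 5.26. Its groups were tight and 1.06 apart (adjusted p = 0.028), and each array left out ended the call (up to 0.13). Hells, the chromatin remodeller LSH that helps DNA methylation and silences transposons, read 7.96, 7.97 and 7.99, against 7.03, 6.64 and 6.82. It rose by 1.15 ± 0.21 (2.21-fold, adjusted p = 0.0042) and kept its call without any 1 array. Dppa3 (Stella), which protects DNA from demethylation in the zygote, rose by 0.71 ± 0.15 (adjusted p = 0.0082, and 0.074 without E12.5 replicate 3). Tdrd7, a Tudor protein of germ granules, read 4.07, 4.22 and 4.11, against 3.18, 3.56 and 3.23 (change 0.81, adjusted p = 0.037, and up to 0.14 with each array left out ending the call). Dmrt1, a transcription factor of the testis and of germ cells that was picked after its value was seen, rose by 0.89 ± 0.18 (adjusted p = 0.0076, and 0.053 without E12.5 replicate 2).

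The list of germline licensing and genome defence held 30 tested genes: 2 rose (Ddx4 and Tdrd7) and 0 fell, with a median change of 0.269. The arrays did not overlap for 13 higher and 5 lower members, where 10.8% and 14.4% of all genes had this. Dazl, an RNA-binding protein that licenses germ cells for sexual differentiation, read 8.48, 8.40 and 8.41 at E12.5, against 7.90, 7.57 and 8.04 at E11.5, without overlap but short of the threshold (adjusted p = 0.23). Stk31 (0.84, adjusted p = 0.077), Hsf2bp (0.68, 0.055) and Mael (0.49, 0.37) did not pass. Meiotic entry and prophase I had 33 tested genes, of which Smc1b was the 1 that rose and 0 fell, and 10 higher and 1 lower did not overlap. Stra8, which retinoic acid induces before meiosis, stayed at the array floor with 2.21, 2.21 and 2.26, against 1.95, 2.18 and 2.00. The synaptonemal complex gene Sycp3 had 6.03, 5.26 and 5.02, against 4.76, 4.97 and 4.43 (adjusted p = 0.28), the recombinase gene Dmc1 0.57 (0.24), and the meiotic cohesin gene Rec8 -0.19 (0.82). Zglp1, a factor of the oogenic programme, was at 0.61 (0.16).

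The sequences at the first listed start of 4 rising genes are shown. In 3 of them CpG density is high, on which DNA methylation can act, and 1 has none. Other starts of these genes were not examined. The Bnc2 sequence may therefore lie inside the gene, and its count of 0 may not describe the promoter in use. Each sequence runs from 250 bases before to 50 bases after the RefSeq transcript start (GRCm38.p6), and capitals mark CACGTG, the E-box, and TCCCGC or its reverse complement GCGGGA, the core of E2F-like sites, searched on both strands. Ddx4 lies at chr13:112652261-112652560 on the minus strand with 38 CpG dinucleotides, Smc1b at chr15:85131908-85132207 on the minus strand with 29, Hells at chr19:38930740-38931039 on the plus strand with 34, and Bnc2 (described below) at chr4:84610148-84610447 on the minus strand with 0.
Ddx4: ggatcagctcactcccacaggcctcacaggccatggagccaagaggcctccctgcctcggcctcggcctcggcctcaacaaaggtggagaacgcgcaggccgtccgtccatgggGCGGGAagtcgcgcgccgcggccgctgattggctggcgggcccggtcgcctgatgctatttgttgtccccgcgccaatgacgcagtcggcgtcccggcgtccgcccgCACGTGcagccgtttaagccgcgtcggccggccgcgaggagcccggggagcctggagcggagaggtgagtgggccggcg
Smc1b: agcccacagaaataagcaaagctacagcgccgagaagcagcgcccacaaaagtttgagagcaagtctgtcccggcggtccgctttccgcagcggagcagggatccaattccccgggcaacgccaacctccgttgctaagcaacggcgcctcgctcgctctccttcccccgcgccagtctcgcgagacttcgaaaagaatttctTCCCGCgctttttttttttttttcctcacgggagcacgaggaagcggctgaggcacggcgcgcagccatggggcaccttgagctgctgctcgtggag
Hells: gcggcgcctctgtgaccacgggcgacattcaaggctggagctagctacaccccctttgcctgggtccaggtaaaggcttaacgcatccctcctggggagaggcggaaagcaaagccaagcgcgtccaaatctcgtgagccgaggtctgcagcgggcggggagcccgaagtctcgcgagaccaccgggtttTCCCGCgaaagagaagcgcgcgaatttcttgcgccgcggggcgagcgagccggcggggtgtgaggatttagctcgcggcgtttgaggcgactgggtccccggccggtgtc
Bnc2: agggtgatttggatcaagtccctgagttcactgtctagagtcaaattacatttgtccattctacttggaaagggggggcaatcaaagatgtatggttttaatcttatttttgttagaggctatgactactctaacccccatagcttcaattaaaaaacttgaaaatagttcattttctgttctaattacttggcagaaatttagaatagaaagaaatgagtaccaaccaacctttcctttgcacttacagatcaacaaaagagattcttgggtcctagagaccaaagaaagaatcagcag
Promoters, taken at the first listed start of each gene, were found for 119 of the 146 genes that rose, 188 of the 251 that fell and 11969 of all 15180. The median number of CpG was 25 among rising genes, 23 among falling genes and 19 over all genes, so both called sets were denser than the rest. CACGTG was present in 11.8% of rising, 13.8% of falling and 9.67% of all promoters, and TCCCGC in 31.9%, 38.3% and 33.0%. The 3 shares of each motif are descriptions, and the called sets also had higher levels than all genes, as given above.

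Of the genes of early primordial germ cells, 4 fell. Alpl, the alkaline phosphatase by which these cells are stained, read 5.58, 5.69 and 4.42 at E12.5, against 6.89, 5.58 and 6.46 at E11.5. The groups overlapped at E11.5 replicate 2, and Alpl was barely past the threshold (2.11-fold lower, adjusted p = 0.04986). The call ended without E11.5 replicate 1 or 3 or E12.5 replicate 3 (up to 0.33) and in 5 other fits. Rhox6, an X-linked homeobox gene of germ cells, read 8.82, 8.71 and 8.64, against 9.63, 9.62 and 9.66, and Rhox9, its neighbour in family and chromosome, 10.42, 10.25 and 9.96, against 10.87, 10.93 and 10.89. Both were tightly grouped at E11.5 and fell 1.89-fold (adjusted p = 0.016) and 1.61-fold (adjusted p = 0.045), calls that were kept without E12.5 replicate 1 and lost without any other array (up to 0.086 and 0.24). The Rhox9 call was also lost after quantile normalization (0.062) and without the filter on low values (0.052). Ifitm3 (Fragilis), the surface protein of nascent germ cells, changed by -0.85 (adjusted p = 0.04986, lost without each array, up to 0.19, and also at 0.064 after quantile normalization, 0.062 without the filter and 0.051 with probe sets averaged), and was picked after its value was seen. Of 16 tested genes of this list, 1 rose (Dppa3) and these 4 fell, and the median was -0.282. Over all genes, 0.962% rose and 1.65% fell. Kit, a receptor for survival signals, was at -0.01, the chemokine receptor gene Cxcr4 at -0.29 and the RNA-binding protein gene Nanos3 at -0.21, none past the threshold.

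Core pluripotency factors did not pass the test. Nanog read 7.92, 7.90 and 7.68 at E12.5, against 8.23, 8.18 and 8.24 at E11.5, without overlap and not past the threshold (-0.38, adjusted p = 0.38). Pou5f1 was at -0.11 and Sox2 at 0.01 (adjusted p = 0.81 and 0.99). Tfcp2l1, a factor of naive pluripotency, read 5.22, 5.05 and 4.32, against 5.62, 5.94 and 5.82, and was the member that fell (-0.93, adjusted p = 0.040). Its call was kept without E12.5 replicate 1 and lost without any other array (up to 0.27), and was also lost without the filter on low values. Of 28 tested members, 1 rose (Dppa3, which also stands on the preceding list) and 1 fell, with a median of -0.214. Without overlap, 10 members were lower and 1 was higher, against 14.4% and 10.8% of all genes. Utf1 (-0.55, adjusted p = 0.077) and Lin28a (-0.48, 0.088) were among those that did not pass.

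**Figure D3:**
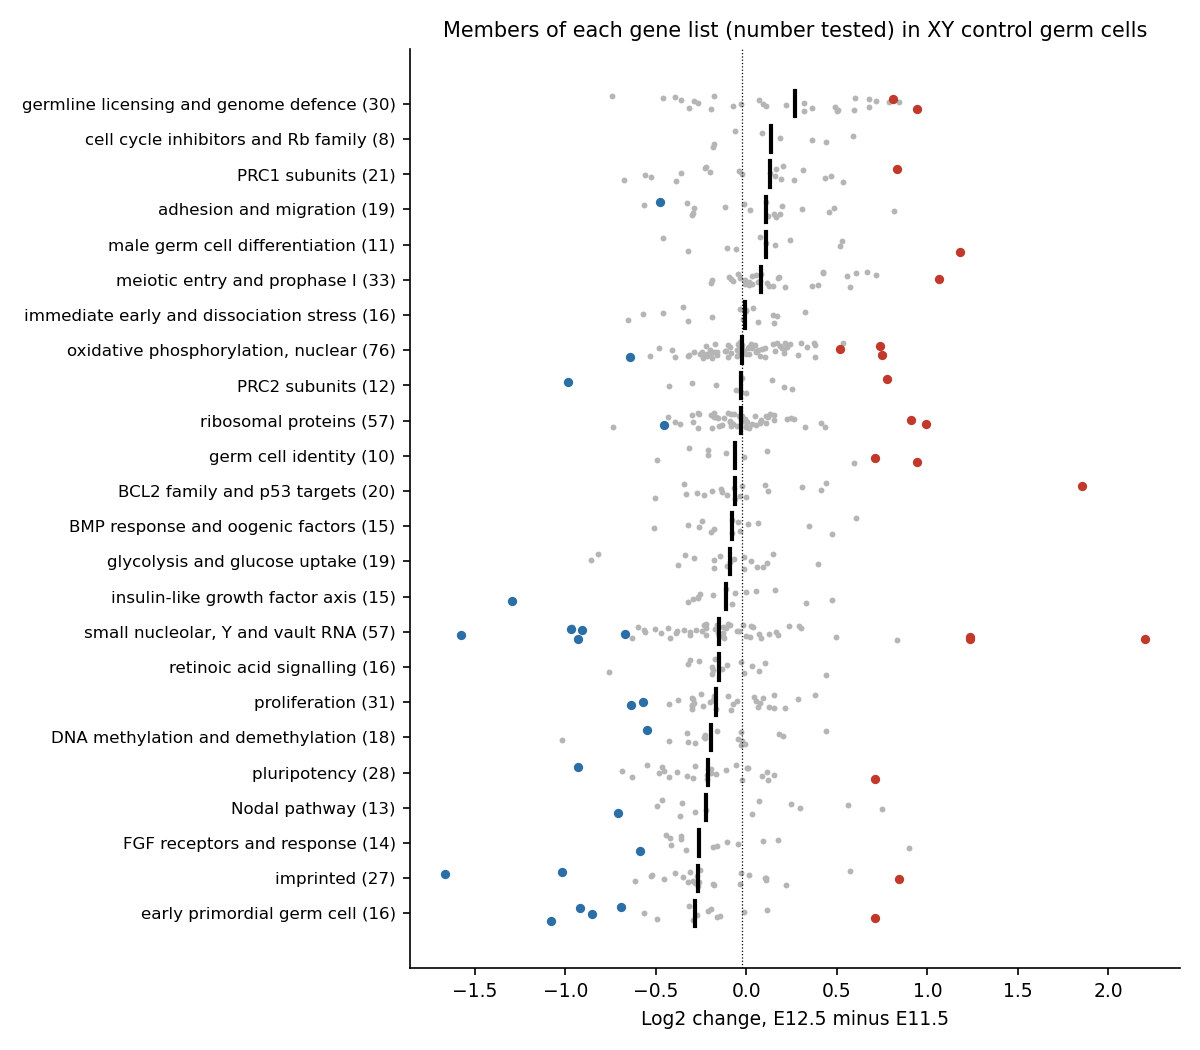
Log2 change (E12.5 minus E11.5) of each tested member of 24 gene lists in XY control germ cells, with the number tested beside each name. Red and blue points passed the test as higher or lower, grey points did not, the bar is the list's median and the dotted line the median of all genes (-0.0243). List medians ran from -0.282 (early primordial germ cell) to 0.269 (germline licensing and genome defence).

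Of the male programme, 1 gene passed. Bnc2, a zinc finger protein of male germ cells, read 4.11, 4.36 and 4.33 at E12.5, against 3.22, 2.86 and 3.17 at E11.5. It rose 2.27-fold (adjusted p = 0.019), with the call kept without E12.5 replicate 1 and lost without any other array (up to 0.092). It was the member that passed among 11 tested genes of male germ cell differentiation, where none fell and the median was 0.107. In XX controls Bnc2 read 2.53 to 3.06 at E11.5, 2.90 to 3.43 at E12.5 and 3.75 to 4.42 at E13.5. Bnc2 was not among the named genes whose change over this day differed between XY and XX cells. Nanos2, the RNA-binding protein that sets the male fate, read 2.60, 2.51 and 3.18, against 2.19, 2.10 and 2.42, so every later array was higher by a margin short of the threshold (0.53, adjusted p = 0.33). On the 3 E13.5 arrays it averaged 4.76. Hesx1, a homeobox repressor, read 2.04, 2.29 and 2.41, against 1.62, 1.87 and 1.69 (adjusted p = 0.12), and 4.22 on average at E13.5.

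Nodal ligands and inhibitors did not pass the test. Nodal read 4.42, 4.39 and 4.50 at E12.5, against 4.65, 5.22 and 4.92 at E11.5, a lower level short of the threshold (adjusted p = 0.12). Its co-receptor gene Tdgf1 (Cripto) had 6.44, 6.41 and 6.02, against 5.95, 7.53 and 6.79, and the groups overlapped. The feedback inhibitor gene Lefty1 had 6.33, 6.69 and 6.39, against 4.93, 6.20 and 6.03 (0.75, adjusted p = 0.27), and Lefty2 was at 0.30 (adjusted p = 0.80). Otx2, a homeobox gene, read 3.93, 3.48 and 4.06, against 3.35, 3.31 and 3.12 (adjusted p = 0.21), and averaged 5.10 at E13.5. The receptor gene Acvr2b, of the same pathway, read 4.83, 4.67 and 4.71, against 5.38, 5.52 and 5.44. It was the member that changed among 13, with a fall of 0.71 on the log2 scale (adjusted p = 0.0017) kept without any 1 array. Of 14 genes of FGF receptors and response, Dusp4, an ERK phosphatase, fell (-0.59, adjusted p = 0.040, lost without each array, up to 0.20, and at 0.070 after quantile normalization and 0.053 with a variance trend). Among 16 genes of retinoic acid signalling, 0 passed in either direction, where 2.62% of all genes did, and the median was -0.153. Crabp1, a retinoic acid-binding protein, was at -0.76 (adjusted p = 0.070).

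The following day of XY controls was set beside these values; it shares the 3 E12.5 arrays, so no overlap of the 2 comparisons is read. Bnc2 gained another 2.32 ± 0.28 to E13.5 (adjusted p = 1.3e-05), Nanos2 1.99 (3.5e-05), Hesx1 1.97 (1.2e-07) and Otx2 1.28 (0.0028). Pmaip1, Ccl25 and Rny1 were again higher, by 1.18, 0.96 and 1.53 (adjusted p = 0.026, 0.019 and 0.0054). Rhox6, Rhox9 and Slc38a4 were again lower, by -1.74, -1.51 and -1.49 (adjusted p = 1.3e-05, 2.0e-05 and 0.0045). Some genes that fell read near their E11.5 level at E13.5. Choosing genes that were low on the shared E12.5 arrays favours such a return, so it is not read as a result. Rny3 read 7.68 to 8.23 at E11.5, 6.89 to 7.47 at E12.5 and 8.19 to 8.28 at E13.5. Snord35b read 5.94 to 6.37, 5.04 to 5.46 and 5.91 to 6.19 at the same stages. Hells, Rnu3a, ND3 and Cks2 were at -0.13, 0.05, 0.02 and -0.01 from E12.5 to E13.5, none past the threshold. In that comparison 115 genes were higher (0.758%) and 52 lower (0.343%), 167 in all (1.1%).

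**Figure D4:**
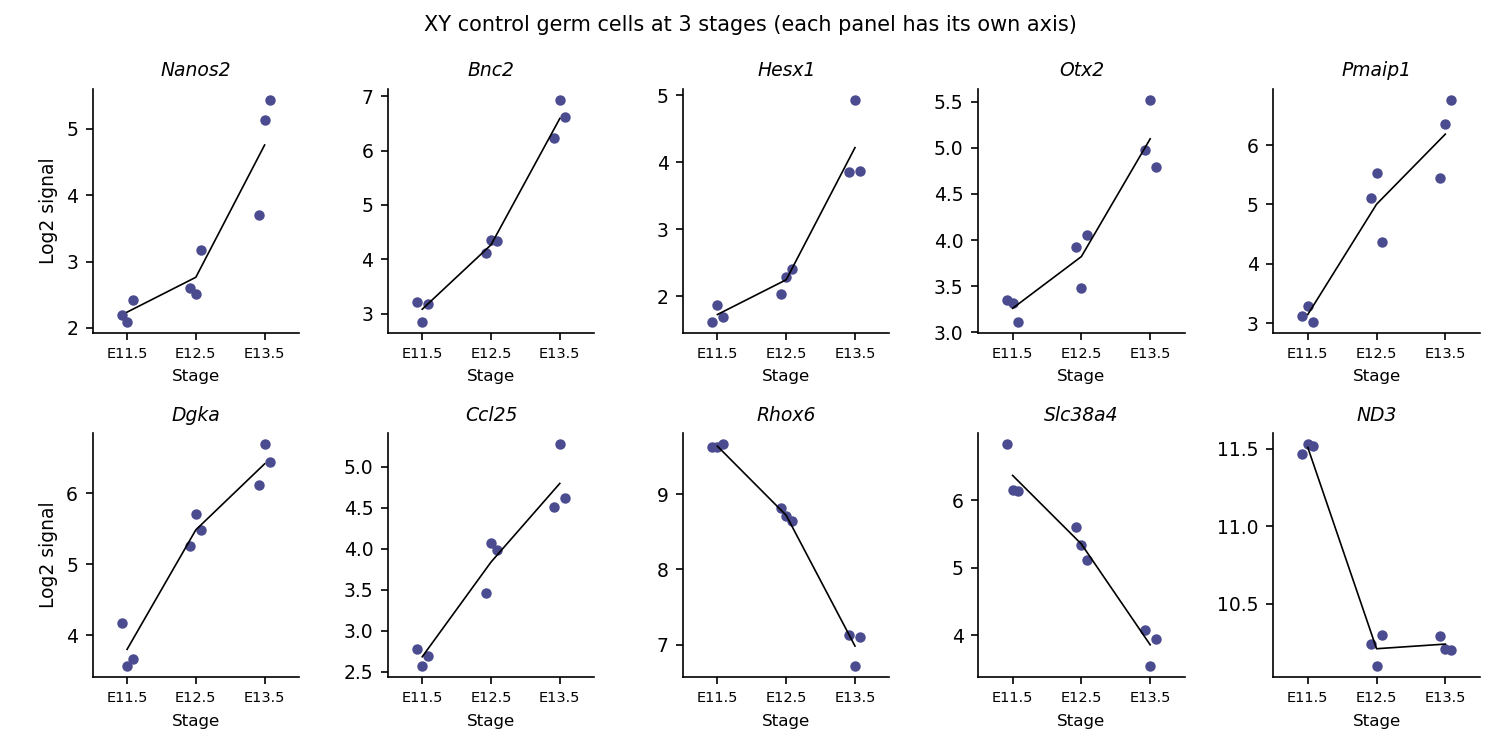
Log2 signal of 10 genes on the 3 arrays of each stage of XY control germ cells (points), with the line through the stage means. Nanos2, Hesx1 and Otx2 passed the test from E12.5 to E13.5 and not from E11.5 to E12.5, Bnc2, Pmaip1 and Ccl25 were higher at each stage, Rhox6 and Slc38a4 lower at each stage, and ND3 fell before E12.5 and then stayed level.

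Of the PRC2 and PRC1 genes, 3 changed. Rbbp7, a histone-binding subunit of PRC2 and deacetylase complexes, read 8.13, 8.36 and 8.07 at E12.5, against 7.59, 7.30 and 7.34 at E11.5. It rose by 0.78 ± 0.14 (adjusted p = 0.0044) and kept its call without any 1 array. Phf19, a PRC2 accessory protein that reads methylated histone H3, read 3.28, 3.72 and 3.32, against 4.50, 4.28 and 4.50, and fell by 0.99 on the log2 scale (adjusted p = 0.0048), also without any 1 array. They were the 2 of 12 PRC2 genes that changed (2.62% of all genes did), in opposite directions. Rnf2, the ubiquitin ligase of PRC1 that is altered in the Rnf2delta samples, read 5.22, 5.68 and 5.21, against 4.79, 4.13 and 4.70. It rose 1.78-fold in these normal cells (adjusted p = 0.014), and lost its call without E11.5 replicate 2 or E12.5 replicate 2 (up to 0.10). It was the single called gene of 21 PRC1 genes (median 0.129, and -0.0632 with E12.5 replicate 3 as the lone E12.5 array), and its paralogue Ring1 was at 0.16 (adjusted p = 0.70). Of the subunits that give PRC1 its form, Cbx7 (-0.68, adjusted p = 0.074), Pcgf2 (-0.56, 0.068) and Kdm2b (0.43, 0.12) did not pass.

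Among 18 genes of DNA methylation and demethylation, Ung, the uracil glycosylase of base excision repair, read 6.13, 5.99 and 6.04 at E12.5, against 6.72, 6.51 and 6.57 at E11.5. It was the 1 that fell (-0.55, adjusted p = 0.031), and each array left out ended the call (up to 0.14). The maintenance methyltransferase gene Dnmt1 had 7.20, 7.25 and 6.87, against 7.62, 7.41 and 7.14 (adjusted p = 0.36). Uhrf1, which brings DNMT1 to replicated DNA, was low on all arrays, with 3.12, 3.62 and 3.41, against 3.08, 2.78 and 2.97 (adjusted p = 0.43). The oxidase gene Tet1 was at 0.18 (0.70). Of 27 imprinted genes, whose single active allele is fixed by methylation that germ cells erase, 1 rose and 2 fell, with a median of -0.267. Phlda2, a placental growth inhibitor, read 4.51, 3.53 and 3.75, against 5.97, 5.22 and 5.58 (-1.66, adjusted p = 0.020, lost without E11.5 replicates 1 or 3 or E12.5 replicates 2 or 3, up to 0.10). Slc38a4, an amino acid transporter, read 5.60, 5.34 and 5.12, against 6.83, 6.14 and 6.13 (-1.02, adjusted p = 0.048, lost without each array, up to 0.23, and at 0.062 without the filter on low values). Mest, a hydrolase-like protein, read 5.95, 6.02 and 6.26, against 5.83, 4.89 and 4.97 (0.84, adjusted p = 0.040). The Mest call was kept without E11.5 replicate 1 and lost without any other array (up to 0.20).

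Of 31 tested genes of proliferation, 0 rose and 2 fell, where 0.962% and 1.65% of all genes did. They were E2f1, the S phase transcription factor (-0.57, adjusted p = 0.019), and Ccnd3, a D-type cyclin (-0.64, adjusted p = 0.024). E2f1 lost its call without E11.5 replicates 2 or 3 or E12.5 replicates 1 or 3, and Ccnd3 without any array but E12.5 replicate 1 (each up to 0.13). Of 8 tested inhibitors and Rb family genes, 0 passed. Cdkn2a read 4.22, 4.09 and 4.15 at E12.5, against 3.73, 3.72 and 3.69 at E11.5 (adjusted p = 0.28), and Rb1, the pocket protein gene, 3.98, 3.53 and 4.0, against 3.07, 3.06 and 3.60 (adjusted p = 0.089). Cdkn1b, which encodes the arrest protein p27, spread widely at 3.74, 3.19 and 4.63, against 3.81, 4.18 and 4.12 (adjusted p = 0.91). Of 20 genes of the BCL2 family and p53 targets, Pmaip1 was the 1 that changed, and the list's median was -0.065. Of 19 adhesion and migration genes, Ror2, a WNT5A receptor, was barely past the threshold as lower (-0.48, adjusted p = 0.049). Its call was lost without each array (up to 0.25) and in 5 of 9 other fits, among them quantile normalization (0.11), a variance trend (0.074) and only the groups compared (0.066). Of 15 genes of the insulin-like growth factor axis, Igf2bp1 fell. No gene passed among 19 of glycolysis and glucose uptake, 15 of BMP response and oogenic factors, 16 of immediate early response and dissociation stress and 6 Y-linked genes. With 2.62% of all genes called, 0 on lists this short is not read as a result.

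Both mitochondrially encoded genes tested fell. ND3, the mitochondrially encoded subunit 3 of complex I, read 10.24, 10.10 and 10.30 at E12.5, against 11.47, 11.53 and 11.52 at E11.5. The groups were 1.29 ± 0.10 apart (2.45-fold lower, adjusted p = 2.7e-09), and neither group's arrays came near the other's. COX2, a subunit of cytochrome c oxidase, which was picked after its value was seen, read 9.49, 9.27 and 9.70, against 9.92, 10.05 and 9.95 (-0.49, adjusted p = 0.022, and 0.057 when the fit held no other group; kept without E12.5 replicate 3 and lost without any other array, up to 0.14). Of 76 nuclear genes of oxidative phosphorylation, 3 rose and 1 fell, where 0.962% and 1.65% of all genes did. Their median was -0.0263 (0.0128 after quantile normalization and 0.0169 without E11.5 replicate 3). Ndufs1, the largest core subunit of complex I, read 6.53, 6.53 and 6.50, against 5.87, 5.74 and 5.75 (0.74, adjusted p = 0.011, kept without any 1 array). Atp5pb, a subunit of ATP synthase, rose by 0.75 (adjusted p = 0.020, and up to 0.13 without E11.5 replicates 2 or 3 or E12.5 replicates 2 or 3). Ndufa8 rose by 0.52 (0.022, kept without E12.5 replicate 3 only, up to 0.11), and Atp5d fell by 0.64 on the log2 scale (0.033, lost without each array, up to 0.18). Of 57 ribosomal protein genes, Rpl29 and Rpl7a passed as higher and Rpl24 as lower (0.99, 0.91 and -0.46; adjusted p = 0.035, 0.037 and 0.046), and each lost its call without at least 5 of the 6 arrays. Rpl7a and Rpl24 also lost it with probe sets averaged (0.40 and 0.45), and Rpl24 when the fit held no other group (0.072). Genes of this family have many near-identical pseudogene copies, so their probe sets are uncertain.

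Small noncoding RNAs moved in both directions. Of 57 small nucleolar, Y and vault RNA genes tested, 3 rose and 5 fell (median -0.152), where 0.962% and 1.65% of all genes did. Snora20, which guides pseudouridylation, read 3.61, 3.71 and 3.67 at E12.5, against 2.43, 2.32 and 2.54 at E11.5, and Snora33, of the same class, 6.13, 5.67 and 5.77, against 7.56, 7.65 and 7.09. Their changes of 1.24 and -1.58 (adjusted p = 0.0043 and 0.0022) were kept without any 1 array. The Y RNAs Rny1 and Rny3, partners of the Ro protein encoded side by side on chromosome 6, moved apart over this day. Both were higher at E13.5 than at E12.5. Rny1 had 7.40, 6.76 and 6.84, against 5.68, 5.67 and 5.95 (1.24, adjusted p = 0.020, and up to 0.10 without E11.5 replicates 1 or 2 or E12.5 replicates 1 or 3). Rny3 had 6.97, 6.89 and 7.47, against 7.68, 8.23 and 8.21 (-0.93, adjusted p = 0.017, and up to 0.090 without E11.5 replicates 2 or 3 or E12.5 replicates 1 or 2). Snora70 (-0.67, adjusted p = 0.0082), and Snord38a and Snord35b (-0.97 and -0.91, adjusted p = 0.013 and 0.041, picked after their values were seen) also fell. The first lost its call without E11.5 replicate 2 (0.053), the second without E11.5 replicate 3 (0.088) and the third without each array (up to 0.20), after quantile normalization (0.063) and without the filter (0.053). The mean log2 signal of these 57 genes was 4.93, 4.93 and 4.90 at E12.5, against 4.94, 5.13 and 5.09 at E11.5. Much of this class lies within introns of other genes, and with amplified cDNA the host transcript and the small RNA cannot be told apart.

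Of 160 microRNA genes tested, 4 rose and 1 fell, where 0.962% and 1.65% of all genes did. Of these 5, 4 are described, picked after their values were seen. All were dim, at 1.76 to 4.04 on the 6 arrays, where the 40th percentile of an array lies between 2.20 and 2.40. Mir19a had 2.80, 2.94 and 2.71 at E12.5, against 1.90, 1.86 and 2.19 at E11.5 (0.83, adjusted p = 0.013). Mir17, from the same cluster on chromosome 14, had 2.25, 2.28 and 2.28, against 2.75, 2.68 and 3.13 (-0.58, adjusted p = 0.035). Mir505 rose by 0.82 (adjusted p = 0.024) and Mirlet7f-1 by 0.60 (adjusted p = 0.032). Each lost its call without at least 3 of the 6 arrays, with adjusted p up to 0.060, 0.22, 0.12 and 0.12. With amplified cDNA a mature microRNA and its longer transcript cannot be told apart. The opposite signs of Mir17 and Mir19a are therefore not read as a result about mature microRNAs. The mature sequences are shown for reference, with the seed (bases 2 to 8) in capitals (RefSeq, GRCm38.p6).
mmu-miR-19a-3p: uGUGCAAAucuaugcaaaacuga
mmu-miR-17-5p: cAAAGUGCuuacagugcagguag
mmu-miR-505-3p: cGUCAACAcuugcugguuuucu
mmu-let-7f-5p: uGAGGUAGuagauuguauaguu

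The same days were measured in arrays that share none with this comparison. Nothing in the labels separates stage from sort or processing run. A handling difference between the stages that these arrays shared cannot be told apart from stage. On the 15 bright unnamed probe sets, the XY Rnf2delta arrays averaged 10.82, 10.84 and 10.28 at E12.5, against 10.25, 10.06 and 10.17 at E11.5. The part of this in the shared directions was not tested. In XY Rnf2delta germ cells, 143 of the 146 rising genes had a positive change (97.9%, against 47.3% of all genes), and 249 of the 251 falling genes a negative one (99.2%, against 52.7%). The median changes were 0.384 and -0.481 there, against 0.693 and -0.709 in the controls in which the genes were chosen. Of the 23 and 60 genes called higher (0.152% of all) and lower (0.395%) in Rnf2delta (0.547% together), 13 and 46 were among those of the controls. The erythroid marker Hbb-y read from 1.845 to 9.715 on the E12.5 XY Rnf2delta arrays (mean 4.48), and at most 3.223 in every other group. The part of this in these values was not tested. A test of whether the change differed between genotypes (control minus Rnf2delta) called 0 genes in limma (0%) and 0 in each alternative. At an unadjusted p under 0.05 it had 361 of 15180, fewer than that threshold alone would give. The 361 are therefore not read as differences. Nor do 0 calls show that the changes were equal. Rnu3a rose by 2.97 and ND3 fell by 1.24 on the log2 scale in Rnf2delta XY cells (adjusted p = 6.1e-07 and 7.1e-09). Otx2 passed in the Rnf2delta cells (1.40, adjusted p = 0.0020) and not in the controls, but the difference between genotypes was not past the threshold (-0.835, adjusted p = 1).

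In XX control germ cells, 117 of the 146 (80.1%, against 40.5% of all genes) and 226 of the 251 (90.0%, against 59.5%) had the same direction. Ddx4, Smc1b and Hells rose there too, by 1.59, 1.06 and 1.45 (adjusted p = 5.7e-05, 0.0057 and 1.6e-05), and Tfcp2l1, Ifitm3 and Snrnp70 fell. The change differed between XY and XX cells (XY minus XX) for 507 genes (3.34%), 402 higher (2.65%) and 105 lower (0.692%). Dgka, Mgst2 and Pmaip1 gained more in XY cells by 1.99 ± 0.36, 2.02 ± 0.52 and 1.58 ± 0.39 (adjusted p = 0.0015, 0.027 and 0.020). These genes were named for large rises on the same XY arrays, which favours a difference of this sign. At E12.5 Dgka read 5.26 to 5.71 in XY controls and 2.74 to 2.91 in XX controls. Phlda2 fell in XY cells and was at 0.95 in XX cells (difference -2.61 ± 0.56, adjusted p = 0.0079). ND3 fell in XY cells but read 11.27 to 11.34 in XX cells at E12.5 and 11.31 to 11.43 at E11.5, before 9.86 to 9.99 at E13.5 (difference -1.23 ± 0.14, adjusted p = 1.2e-05). Cks2 moved opposite ways (-1.46 in XY, 0.65 in XX, difference -2.11 ± 0.26, adjusted p = 3.2e-05), though its XY fall was at 0.14 with probe sets averaged. The Nodal genes Tdgf1 and Lefty1, which did not pass in XY cells, fell in XX cells (-3.01 and -1.17, difference 2.54 ± 0.56 and 1.92 ± 0.48, adjusted p = 0.0089 and 0.022). The E12.5 XX control arrays stood apart: they correlated at 0.964 to 0.970 on average with their replicates, against 0.987 to 0.990 for the other 9 arrays of this test. The count of the sex test was 200 with only its own groups in the fit.

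**Figure D5:**
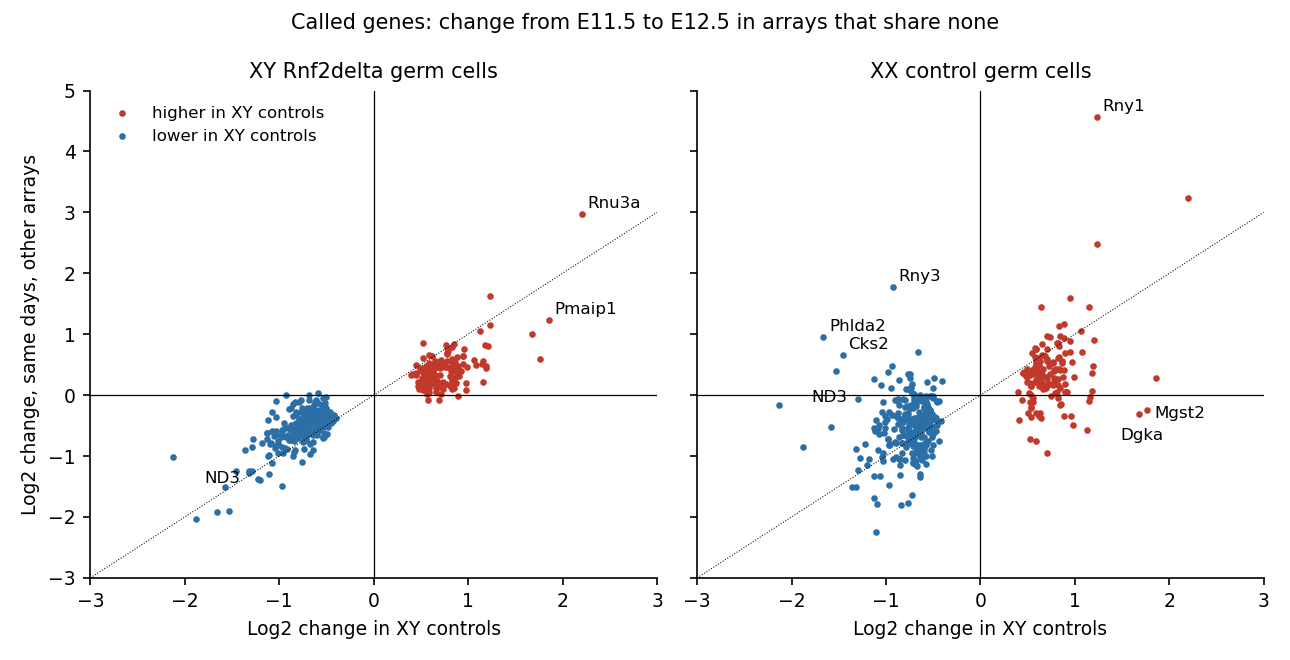
Log2 change from E11.5 to E12.5 in XY Rnf2delta germ cells (left) and XX control germ cells (right), against the change in XY control germ cells, for the 397 called genes. The dotted line marks equal change. In Rnf2delta cells 143 red and 249 blue points keep their direction, in XX cells 117 and 226.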

How the data were processed

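RNA of 500 sorted germ cells per sample was amplified and hybridised to Affymetrix arrays. The deposited table holds log2 values per probe set for 30 arrays, which the authors made with R 2.15 and affy 1.36, per the submitters' processing notes; how background was corrected and probes were summarized, and the build, is not given in the sources used here. Groups come from the labels (10 groups of 3). Of 34760 probe sets, 21640 had 1 gene symbol, 1321 several and 11799 none listed; 21553 were updated by Entrez identifier. Each of 19937 genes was read from its probe set with the highest mean, and 15180 were kept that exceeded the 40th percentile of an array on at least 3 arrays. The values were fitted with limma 3.58.1 in R 4.3.3 over all 30 arrays (20 residual degrees of freedom), with Benjamini-Hochberg adjustment over 15180 genes at 0.05. The number of arrays limits precision. No 2 arrays were identical. The sex and genotype comparisons are differences of changes in the same fit. Named genes are the 20 largest rises and falls past the threshold without overlap between groups, up to 4 members of each list and up to 5 genes each way of the sex and genotype comparisons by smallest p, and a fixed set; genes outside this are said to be picked after their values were seen. The members and lists were chosen with earlier results of these data known. The fit was also run on simulated data, whose outcome is not given here and is not used as support. Alternatives were other array subsets, quantile normalization, array weights, averaged probe sets, other filters, a variance trend, a replicate block and each array left out. Gene names and sequences are from RefSeq (GRCm38.p6).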

Additional observations from a re-analysis of the deposited data

Results flagged for a closer look

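The change from E11.5 to E12.5 differed between XY and XX control cells for 29 of the genes named by rule or list. This was by the limma test of the difference itself (XY change minus XX change, log2, with the adjusted p). Of all 15180 genes, 507 (3.34%) passed it. Some of the 29 were named for their small p in this same test, and others for large XY changes on the same arrays. The 29 are therefore listed as descriptions and are not compared with the share of all genes. In the 12 arrays of this test the E12.5 XX arrays stood apart, with a mean own-group correlation of 0.964 to 0.970. The part of this in the values below was not tested.

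Among genes whose change was more negative in XY cells, ND3 differed by -1.23 (1.2e-05), Rny3 by -2.71 (1.2e-05), Cks2 by -2.11 (3.2e-05), the 5S ribosomal RNA gene n-R5s136 by -3.97 (3.2e-05) and Rny1 by -3.34 (3.2e-05). Rny1 and n-R5s136 were at 1.24 and 0.68 in XY cells and at 4.57 and 4.65 in XX cells. Zglp1 differed by -1.66 (0.0029), Phlda2 by -2.61 (0.0079), COX2 by -0.764 (0.0095) and Porcn by -1.93 (0.019). Snora20 differed by -1.24 (0.025), Id3, a target of BMP signalling, by -1.26 (0.036) and Crabp1 by -1.16 (0.041).

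Among genes whose change was more positive in XY cells, Eif3m differed by 1.74, Psma5 by 1.23 and Trappc2l by 1.95 (4.6e-05 each), Cby1 by 1.33 (5.4e-05) and Timm10 by 1.56 (8.2e-05). These 5 were between -0.28 and 0.56 in XY cells and between -1.74 and -1.11 in XX cells. Ndufa8 differed by 1.23 (0.00015), Dgka by 1.99 (0.0015), Minpp1 by 1.47 (0.0067) and Tdgf1 by 2.54 (0.0089). Cthrc1 differed by 1.70 (0.012), Lztfl1 by 1.31 (0.019), Pmaip1 by 1.58 (0.020) and Lefty1 by 1.92 (0.022). With probe sets averaged, the XY rises of Lztfl1 and Minpp1 were not called (limma adjusted p = 0.52 and 0.13). Ccl25 differed by 1.19 (0.026), Mgst2 by 2.02 (0.027), Top2a, a proliferation gene, by 0.774 (0.041) and the adhesion gene Epcam by 0.71 (0.045).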

How the results depend on the processing

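The 71 called genes followed through the alternatives kept their sign in every alternative run. The alternatives reuse arrays on which these genes were called, so this was nearly fixed in advance. Over the 6 fits that leave out an array, 20 of the 71 kept every call. Another 12 lost it in 1 or 2 fits, and 39 in 3 or more. The median of 12 of the 33 lists, none above 0.129 in size, took the opposite sign in at least 1 alternative. The germ cell identity median (-0.0628) was 0.0331 without E11.5 replicate 1 and 0.0205 without E12.5 replicate 3, and that of glycolysis (-0.0916) 0.0128 and 0.0127. The counts depended on the setting. For XY control cells (146 higher, 251 lower), the counts were 329 and 452 with only the compared groups, 346 and 561 without the 6 E12.5 XX arrays, and 513 and 728 with array weights. Leaving out an array gave 40 to 84 higher and 64 to 203 lower: without E12.5 replicates 1, 2 and 3 in turn 84 and 203, 73 and 111, and 40 and 64, and without E11.5 replicates 1, 2 and 3 in turn 60 and 89, 42 and 135, and 58 and 102. With E12.5 replicate 3 as the lone E12.5 array, an alternative chosen after seeing the data in which it is assumed to vary like the other groups, 12 and 37 passed. Of the called genes, 18 higher and 42 lower passed in every alternative run except the lone-array one. The sex difference (507) was 200 with only the compared groups and 285 (without XX E11.5 replicate 2) to 858 (without XX E12.5 replicate 3) with an array left out. The genotype difference was 0 in limma in every alternative. The 361 of 15180 genes at an unadjusted p under 0.05 are fewer than that threshold alone would give. XY E13.5 against E12.5 (167) gave 330 without the E12.5 XX arrays, 456 with array weights and 60 to 150 with an array left out. XX E12.5 against E11.5 (2853) gave 926 with only the compared groups and 1604 with array weights. XY Rnf2delta (83) gave 13 with only the compared groups, 302 without the E12.5 XX arrays, 443 with array weights and 17 to 146 with an array left out. Removing the E12.5 XX arrays was not run for the sex difference and the XX comparison, which need them. The cause of these shifts was not tested.

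With the replicate block and only the compared groups, the counts were 278 and 437 for XY controls, 85 for the sex difference, 451 for XX and 34 for XY Rnf2delta. The numbers did not pair the samples: deviations of same-numbered arrays correlated at 0.0147, -0.0428 and -0.0634. Genes near the array floor, such as the microRNAs, have little signal over background.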
